A study of Mus musculus with 11 samples.

Results

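The sites described here were H3K4me3 peaks of quiescent satellite cells (QSCs) that carried H3K27me3 as well and that, in activated satellite cells (ASCs), had an H3K27me3 peak but no H3K4me3 peak. The sites were chosen by the peak calls of 4 lists. A peak of the young QSC H3K4me3 list was taken when at least 1 bp of it lay in H3K27me3 peaks of young QSCs and of ASCs and none of it lay in an ASC H3K4me3 peak. This gave 309 sites among the 24701 H3K4me3 peaks of young QSCs, or 1.25% of them. They came from 3446 bivalent sites, the peaks that overlapped H3K27me3 in young QSCs, of which 2937 had both marks in ASCs, 309 had H3K27me3 alone (8.97%, 95% interval 8.06 to 9.97), 130 had H3K4me3 alone and 70 had neither.

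Satellite cells are the stem cells of skeletal muscle, and the series profiled histone marks by ChIP-seq, in which an antibody to a modified histone pulls down the DNA wrapped around it. All libraries came from male C57BL/6 mice, with no transgene or mutation named. QSCs were sorted from uninjured hindlimb muscle as VCAM+ CD31- CD45- Sca1- cells, from young mice of 2 to 3 months or old mice of 22 to 24 months, and sorted cells were stored and combined until there were enough for a library. The labels describe ASCs as sorted young QSCs kept on a coated surface in medium with horse serum for 3 days, whereas the study's text speaks of cells activated in the animal. Which of these holds for the ASC libraries could not be settled here, and if the labels are right, culture and activation cannot be told apart.

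Young QSCs and ASCs each had lists for H3K4me3, H3K27me3 and H3K36me3, and old QSCs for the first 2 of these marks, which gave 8 peak lists with 1 library each. There were no replicates, so no difference between cell states could be tested, and the 95% intervals (Wilson) cover only the counting of sites. The lists held 11658 to 42880 peaks, and the read depth behind them is unknown. ASCs had 38307 H3K27me3 peaks, old QSCs 17635 and young QSCs 11658. A mark that was not called at a site may still have been present below the limit of the peak caller, and in a pool of cells a mark in fewer cells and a weaker mark in every cell cannot be told apart. Whether the sorted cells expressed the defining genes of satellite cells could not be checked, because the lists hold positions only and no gene positions of their build (mm9) were used.

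H3K4me3 is laid down by Trithorax-type methyltransferases and marks promoters that are active or ready for use. H3K27me3 is laid down by Ezh2 in Polycomb repressive complex 2, often over broad domains, and accompanies repression. Sites with both marks are called bivalent and are best known from embryonic stem cells, where they lie at silent developmental genes, whereas H3K36me3 follows elongating RNA polymerase II through gene bodies.

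The H3K4me3 peaks of the 309 sites were weak and narrow. Their peak score, which rises with the evidence for a peak and starts at 50 for a p-value of 1e-05, had a median of 83.6 and ranged from 50.02 to 1806. At the 2937 bivalent sites that had both marks in ASCs the median score was 649. The median site stood at percentile 19.2 of the young QSC H3K4me3 list, against 51.3 for the sites with both marks. Since scores depend on the depth of each library, they were compared only within a list, and positions in different lists are given as percentiles. A score of at least 100 was reached by 111 of the 309 sites (35.9%) and by 91.7% of the sites with both marks, and a score of at least 500 by 6 of 309 and 1677 of 2937.

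Width followed the same order. The sites had a median H3K4me3 width of 802 bp, with the middle 50% between 671 and 948 bp and a range of 354 to 2804 bp. The sites with both marks had a median width of 1476 bp. Only 61 of the 309 peaks (19.7%) were wider than 1 kb, compared with 80.5% of the sites with both marks. Because absence of an ASC H3K4me3 call is part of how the sites were chosen, these are descriptions of the chosen sites.

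**Figure D1:**
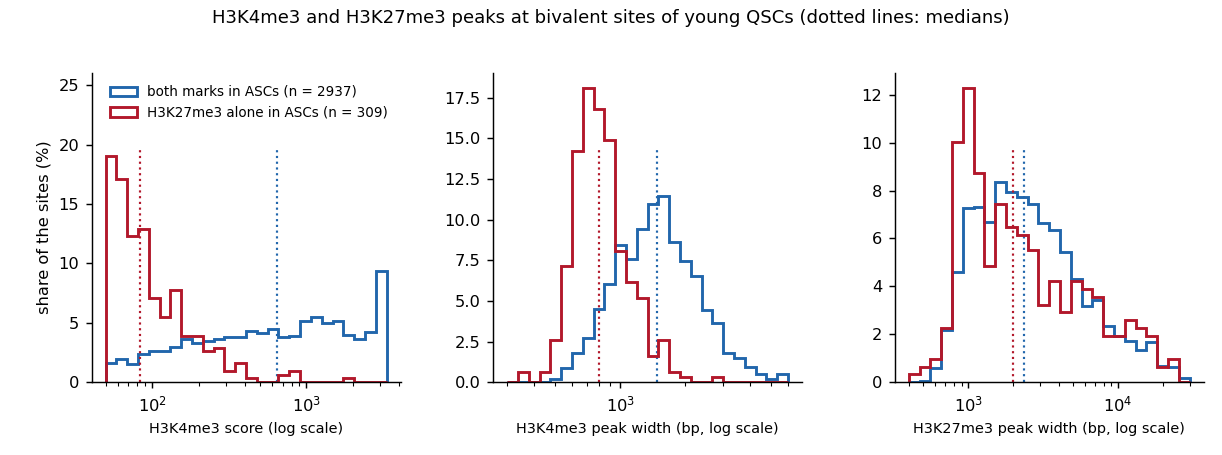
Share of sites (y axis, percent) by H3K4me3 peak score, H3K4me3 peak width and H3K27me3 peak width in young QSCs (x axes, log scale, widths in bp) for the 309 sites left with H3K27me3 alone in ASCs (red) and the 2937 bivalent sites with both marks in ASCs (blue), with dotted lines at the medians. The groups overlap but differ most in H3K4me3 score (medians 83.6 and 649) and H3K4me3 width (802 and 1476 bp) and least in H3K27me3 width (1971 and 2352 bp).

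The share of bivalent sites left with H3K27me3 alone was lower in each higher band of H3K4me3 score. Of the bivalent sites with a score from 50 to below 60, 65 of 131 (49.6%, 41.2 to 58.1) had H3K27me3 alone in ASCs. The share was 33.5% for scores from 75 to below 100 and 9.64% for scores from 150 to below 250. At scores of 500 and over, 6 of 1765 (0.340%) were left with H3K27me3 alone. The absence of an ASC H3K4me3 call was not limited to bivalent sites, and over all 24701 peaks 21.4% had no H3K4me3 peak in ASCs. In each score band below 500, H3K4me3 peaks without H3K27me3 in QSCs lacked the ASC call more often than bivalent ones. For scores from 50 to below 60 the shares were 73.3% (71.2 to 75.2) without H3K27me3 and 57.3% (48.7 to 65.4) with it, and for scores from 150 to below 250 they were 26.7% and 12.5%. At 500 and over both were under 1%, at 0.344% and 0.680%.

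**Figure D2:**
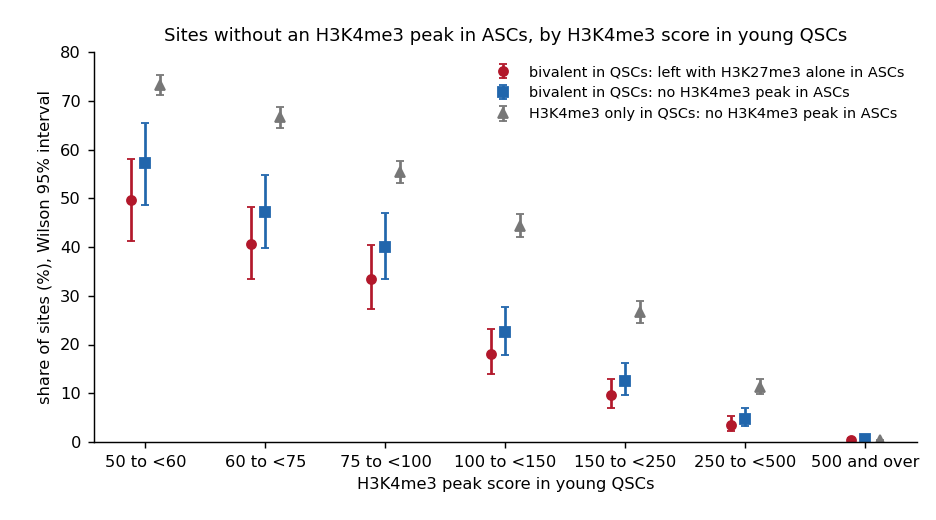
Share of young QSC H3K4me3 sites (y axis, percent, with Wilson 95% intervals) by their H3K4me3 peak score in young QSCs (x axis, bands) that were left with H3K27me3 alone in ASCs (red circles), and the share with no H3K4me3 peak in ASCs among bivalent sites (blue squares) and among sites with H3K4me3 only (grey triangles). All 3 shares fall with the score, from 49.6%, 57.3% and 73.3% in the lowest band to under 1% in the highest, and the triangles lie above the squares in each band below 500.

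The same rule read in other directions found sites too. From ASCs to young QSCs, 314 of 5554 bivalent ASC sites (5.65%, 5.08 to 6.29) had H3K27me3 alone in QSCs. The number of sites was nearly the same with the cell states exchanged, but the share was lower than the 8.97% (8.06 to 9.97) of the 3446 bivalent QSC sites. Between the 2 QSC ages, 132 of 3446 bivalent sites of young QSCs (3.83%) had H3K27me3 alone in old QSCs, and 296 of 7003 bivalent sites of old QSCs (4.23%) had it alone in young QSCs. These counts share libraries with the 309 sites and are given only side by side.

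H3K27me3 peaks at the sites had a somewhat lower median width than those at the sites with both marks, and more of them were under 1 kb. In young QSCs the H3K27me3 peaks had a median width of 1971 bp (middle 50% from 1037 to 4531 bp) and reached 25207 bp, compared with a median of 2352 bp at the sites with both marks. Peaks under 1 kb were found at 65 of the 309 sites (21.0%) and at 11.4% of the sites with both marks, whereas peaks over 5 kb were found at 70 (22.7%) and 20.4%. The share of bivalent sites left with H3K27me3 alone was accordingly highest at the ends of the range of widths, with 13.9% (11.0 to 17.3) in H3K27me3 peaks under 1 kb, 5.56% (3.99 to 7.71) in those from 3 to below 5 kb and 10.3% (8.25 to 12.8) in those of 5 kb and over. The H3K4me3 peak lay wholly within the H3K27me3 peak at 194 of 309 sites (62.8%). This share depends on the width of the H3K4me3 peak and is not compared with the sites with both marks, where that peak was wider.

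In ASCs the H3K27me3 peaks at the 309 sites had a median width of 2567 bp and ranged up to 33699 bp. Each width is that of the single peak sharing most bases with the site, and neighbouring peaks were not joined. When peaks less than 1 kb apart were merged, the median width was 3724 bp in ASCs and 2137 bp in young QSCs. The peak was wider in ASCs than in young QSCs at 185 sites (59.9%, 54.3 to 65.2), and its rank by score within its own list was higher in ASCs at 231 (74.8%). Both shares were larger at the sites with both marks, at 71.3% and 84.7%. The median H3K27me3 peak stood at percentile 78.2 of the young QSC list and 93.3 of the ASC list, which holds over 3 times as many peaks, so these percentiles do not compare amounts of H3K27me3. Across all 24701 H3K4me3 peaks, 14% overlapped H3K27me3 in young QSCs and 26% in ASCs.

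The old QSC lists were not used to choose the sites. The sites were, however, chosen to carry H3K27me3 in young QSCs and ASCs, and only 14% of all peaks had it in young QSCs. Differences from all peaks in old H3K27me3 calls, alone or with H3K4me3, cannot be told apart from that choice. H3K4me3 was called in old QSCs at 176 of the 309 sites (57.0%, 51.4 to 62.4), below the 80.5% of all young QSC H3K4me3 peaks and far below the 97.7% of sites with both marks in ASCs. These groups differed in H3K4me3 score, and no comparison with them in this paragraph is matched on it. H3K27me3 was called in old QSCs at 230 sites (74.4%, 69.3 to 79.0), compared with 21.1% of all peaks and 88.0% of the sites with both marks. Thus 151 sites (48.9%) were bivalent in old QSCs, where 18.2% of all peaks and 86.6% of the sites with both marks were. A further 79 sites (25.6%) had H3K27me3 alone in old QSCs, against 2.93% of all peaks and 1.40% of the sites with both marks. This share depended on the weak peaks, and fell to 12.6% of the 111 sites with an H3K4me3 score of at least 100 and to 9.64% of the 83 left when both young QSC lists were held to that score. H3K4me3 alone was found at 25 sites (8.09%), where 62.3% of all peaks fell, and neither mark at 54 (17.5%), close to the 16.5% of all peaks.

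Weak H3K4me3 peaks were less often called in old QSCs. Among H3K4me3 peaks without H3K27me3 in young QSCs, 72.9% had no H3K4me3 in old QSCs for scores from 50 to below 60 and 38.4% for scores from 100 to below 150. Among the 309 sites, old H3K4me3 was called at 74.0% of those with scores from 100 to below 150 and at 6 of 6 of those of 500 and over. In each score band below 150 the sites had the call more often than the peaks without H3K27me3. For scores from 60 to below 75, 46.3% of the sites had it, while 64.5% of those peaks lacked it. From 150 to below 500 the sites had the call less often. These differences were not tested. When only scores under 100 were compared, 47.0% of 198 sites and 82.8% of 244 sites with both marks in ASCs had H3K4me3 in old QSCs, so the gap was narrower than over all scores but did not close. The intervals of these shares did not overlap (40.1 to 53.9 and 77.5 to 87.0). In the same score range, H3K27me3 was called in old QSCs at 72.2% and 86.1%, and both marks at 39.4% and 75.8%. Narrower bands gave the same order. Old H3K4me3 was called at 41.5% of the sites and 69.2% of those with both marks for scores from 50 to below 60, at 46.3% and 83.1% from 60 to below 75, and at 53.0% and 88.7% from 75 to below 100. The intervals of the 2 groups, which cover only the counting of sites, did not overlap in any of the 6 bands below 500. The groups were set apart by whether H3K4me3 was called in ASCs. A lower share of calls in another H3K4me3 list cannot be told apart from that choice.

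**Figure D3:**
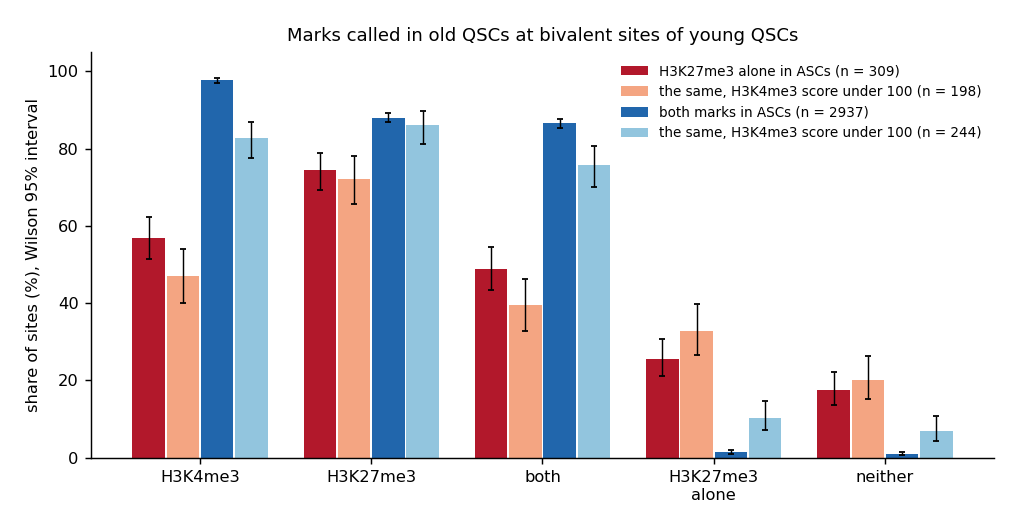
Share of sites (y axis, percent, with Wilson 95% intervals) with H3K4me3, H3K27me3, both, H3K27me3 alone or neither called in old QSCs (x axis), for the 309 sites left with H3K27me3 alone in ASCs, the 2937 bivalent sites with both marks in ASCs, and the sites of each group with an H3K4me3 score under 100 in young QSCs. H3K4me3 was called in old QSCs at 57.0% and 97.7% of the 2 groups, and at 47.0% and 82.8% for scores under 100.

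H3K27me3 peaks were narrower in old QSCs at the sites as in the list as a whole, which had a median width of 1228 bp for young QSCs and 838 bp for old ones. A width is that of a single peak, so a stretch called in several pieces in old QSCs counts as narrower. At the 230 sites with a call, the median width in old QSCs was 1109 bp, and the peak was narrower than in young QSCs at 168 (73.0%, 67.0 to 78.4). This share was lower than the 2450 of 2884 (83.6 to 86.2%) among all young QSC H3K4me3 peaks with H3K27me3 at both ages and than the 86.8% of 2584 sites with both marks in ASCs. The young H3K27me3 peaks had a lower median width at the sites than at those with both marks. Width was not matched, so less narrowing with age is not shown. H3K4me3 went the other way, with a wider peak in old than in young QSCs at 124 of the 176 sites with a call (70.5%, 63.3 to 76.7), close to the 66.7% of all 19891 peaks with a call and the 69.2% of the sites with both marks. The median old H3K4me3 peak at these 176 sites stood at percentile 27.3 of its list, compared with 55.3 at the sites with both marks.

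H3K36me3, which was also not used to choose the sites, was called in young QSCs at 80 of 309 (25.9%, 21.3 to 31.0). This compares with 12.9% of all young QSC H3K4me3 peaks and 12.4% of the sites with both marks in ASCs. Of all 3446 bivalent sites, 2957 had no H3K36me3 in young QSCs. The 130 bivalent sites with H3K4me3 alone in ASCs and the 70 with neither mark are not set beside them here. The higher share is therefore not shown to be particular to the 309 sites. In ASCs H3K36me3 was called at 20 sites (6.47%), which is near the 6.76% of all peaks. Of the 20, 18 had H3K36me3 in QSCs as well. Overlap with H3K36me3 in young QSCs was most frequent at scores from 150 to below 500. It was found at 12 of 65 sites with scores from 50 to below 60, 6 of 67 from 60 to below 75, 14 of 66 from 75 to below 100, 11 of 50 from 100 to below 150, 20 of 37 from 150 to below 250, 14 of 18 from 250 to below 500 and 3 of 6 at 500 and over. Among the sites with both marks the shares in these bands ran from 1.92% to 15.0%. For scores from 150 to 500, a range chosen after these values were seen, H3K36me3 was called at 34 of 55 sites (61.8%, 48.6 to 73.5) and at 83 of 814 sites with both marks (10.2%, 8.30 to 12.5). The H3K36me3 peak covered a median of 99.2% of the H3K4me3 peak at the 80 sites and 66.9% at the 363 sites with both marks that had it. The share covered depends on the width of the H3K4me3 peak, which was not matched here.

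The 80 sites with H3K36me3 differed from the other 229 in more than this mark. Their median H3K4me3 score was 139, compared with 75.3 without H3K36me3, and their H3K27me3 peaks in young QSCs were narrower, with medians of 1096 and 2437 bp. H3K27me3 in ASCs had a median width of 1093 bp at the 80 sites and 3312 bp at the 229. H3K27me3 peaks in ASCs enclosed the whole site at 46.2% of the 80 and 86.9% of the 229. The nearest H3K4me3 peak in ASCs was a median of 12247 bp away with H3K36me3 and 4272 bp without it. In old QSCs the intervals of the 2 groups overlapped, with H3K4me3 called at 61.2% (50.3 to 71.2) and 55.5% (49.0 to 61.8) and H3K27me3 at 78.8% (68.6 to 86.3) and 72.9% (66.8 to 78.3). Narrowing of H3K27me3 in old QSCs, however, was seen at 28 of 63 sites with H3K36me3 (44.4%, 32.9 to 56.7) and 140 of 167 without it (83.8%, 77.5 to 88.6). At 11 sites every list other than ASC H3K4me3 had a peak. This count is given without the matching share of other H3K4me3 peaks, so it does not show whether such sites were unusually frequent. The young QSC H3K27me3 width and the H3K4me3 score moved together with the H3K36me3 call, and the part of each was not tested.

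The highest H3K4me3 score among the 309 belonged to chr3:59848860-59850325 (mm9, 1466 bp), with a score of 1806. Its H3K27me3 peak in young QSCs was 1334 bp wide and stood at percentile 61.9 of its list. The ASC H3K27me3 peak sharing most bases with the site was 581 bp wide at percentile 13.5, with a score of 56.71. Another ASC H3K27me3 peak, with a score of 58.99, also overlapped the site, and together they covered 79.1% of it. Its young QSC H3K36me3 peak of 1693 bp had a score of 3100, at percentile 99.97 of its list. In old QSCs the H3K4me3 peak scored 71.1, at percentile 14.8 of its list, compared with percentile 70.0 in young QSCs, and H3K27me3 stood at percentile 63.0. No H3K4me3 peak in ASCs lay within 342256 bp. This site was thus called in all 3 lists of young QSCs and had low-ranking H3K27me3 in ASCs and low-ranking H3K4me3 in old QSCs.

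The next 3 sites by score ranked higher for H3K27me3 in ASCs. At chr9:20819352-20821079 the H3K4me3 score was 876 in young QSCs, at percentile 55.3, and H3K4me3 stood at percentile 49.0 in old QSCs. H3K27me3 there stood at percentile 76.2 in young QSCs, 93.7 in ASCs and 72.6 in old QSCs, and H3K36me3 was not called in QSCs or ASCs. At chr7:25738783-25740868 the H3K4me3 score was 836 in young QSCs, at percentile 54.6, against percentile 55.8 in old QSCs, and the H3K27me3 peak was 2867 bp wide in young QSCs, 15746 bp in ASCs and 1073 bp in old QSCs. The ASC domain covered all of this site, whereas the peak of young QSCs covered 53.9% of it. At chr2:122138380-122139790, with an H3K4me3 score of 801 at percentile 54.0, H3K27me3 measured 881 bp in young QSCs and 1489 bp in ASCs and was not called in old QSCs, where H3K4me3 stood at percentile 42.8. None of the 3 had H3K36me3 in young QSCs, and each ranked near the middle of both quiescent H3K4me3 lists.

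Narrow peaks with H3K36me3 made up the rest of the 6 sites with scores over 500. At chr1:133470253-133470824 (572 bp) the H3K4me3 score was 671 in young QSCs, at percentile 51.7 and against percentile 24.2 in old QSCs, and H3K27me3 stood at percentile 87.5 in young QSCs, 71.4 in ASCs and 86.9 in old QSCs. At chr6:49186168-49186932 (765 bp) H3K4me3 scored 668 in young QSCs, at percentile 51.6 and against percentile 33.2 in old QSCs, and H3K27me3 stood at percentiles 89.8, 57.4 and 91.6 in young QSCs, ASCs and old QSCs. Their H3K36me3 peaks in young QSCs stood at percentiles 86.3 and 95.3. At both, the rank of H3K27me3 was lower in ASCs than in either QSC library. Among all 24 sites with an H3K4me3 score of at least 250, 17 had H3K36me3 in young QSCs and 1 lay in an H3K27me3 peak over 5 kb. In old QSCs, 19 of the 24 had H3K4me3 and 20 had H3K27me3. Of the sites with both marks in ASCs, 10.6% had young QSC H3K36me3 for scores from 250 to below 500 and 15.0% at 500 and over. In these bands 99.6% and 99.8% of them had H3K4me3 in old QSCs, and 91.9% and 86.0% had H3K27me3. The groups were set apart by ASC H3K4me3 calls, so a lower share with old H3K4me3 cannot be told apart from that choice.

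A different kind of site lay inside broad H3K27me3 domains. The 70 sites in young QSC H3K27me3 peaks over 5 kb had a median H3K4me3 score of 69.3, compared with 88.0 for the other 239, and only 5 of the 70 had H3K36me3 in young QSCs, against 75 of the 239 (31.4%). The same H3K27me3 peak held another H3K4me3 peak of young QSCs at 57 of the 70 (81.4%, 70.8 to 88.8) and at 27 of the 239 (11.3%). The width of the domains was not matched in this comparison. At 56 of the 70 the neighbour in the domain was a bivalent site that had both marks in ASCs. The nearest ASC H3K4me3 peak was a median of 1755 bp away from the 70 sites and 8949 bp from the 239. H3K27me3 was called in old QSCs at 47 of the 70 (67.1%), each time in a narrower peak than in young QSCs, whose width was what set these 70 apart.

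**Figure D4:**
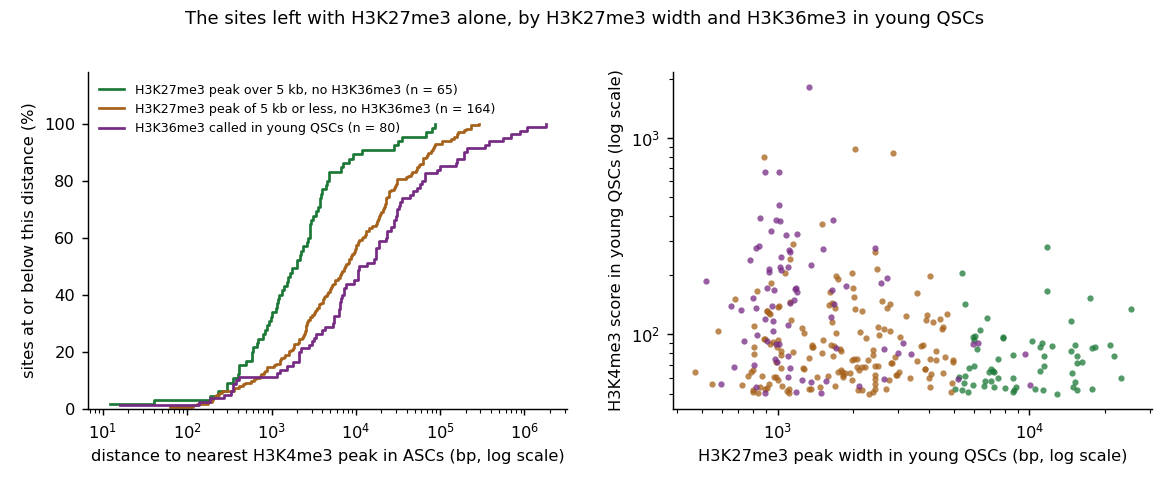
Left, cumulative share of sites (y axis, percent) by distance to the nearest H3K4me3 peak in ASCs (x axis, bp, log scale), and right, H3K4me3 score against H3K27me3 peak width in young QSCs (log scales, 1 point per site), for sites in H3K27me3 peaks over 5 kb without H3K36me3 (green, n = 65), in H3K27me3 peaks of 5 kb or less without H3K36me3 (brown, n = 164) and with H3K36me3 in young QSCs (purple, n = 80). Sites in broad domains lie nearest to H3K4me3 peaks in ASCs, and those with H3K36me3 reach the highest score and mostly have narrow H3K27me3 peaks.

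The widest H3K27me3 peak, of 25207 bp in young QSCs, held the site chr15:102769623-102770526 (904 bp). H3K4me3 scored 135 in young QSCs, at percentile 30.3, and stood at percentile 26.0 in old QSCs. Over the site the H3K27me3 peak was 7789 bp wide in ASCs and 941 bp in old QSCs, as the map of the widest domain shows. Here and below, a width is that of the single peak over the site. Both of these lists had further H3K27me3 peaks along the stretch that young QSCs had as a single peak. The domain held 3 other H3K4me3 peaks of young QSCs, and the nearest ASC H3K4me3 peak lay 1667 bp away. At chr2:71376568-71377373, with an H3K4me3 score of 60.04, the H3K27me3 peak was 23046 bp wide in young QSCs, 13190 bp in ASCs and 1187 bp in old QSCs, where H3K4me3 was not called. That domain held 5 other H3K4me3 peaks, the nearest of them 1158 bp away. Each site thus lay beside other H3K4me3 peaks within 1 domain.

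Several more sites of this kind were found. At chr11:118909034-118909782 the H3K4me3 peak stood at percentile 17.1 in young and 23.9 in old QSCs, within an H3K27me3 domain of 21588 bp in young QSCs and 12700 bp in ASCs that held 6 other H3K4me3 peaks in young QSCs. At chr3:127342699-127343440 H3K4me3 stood higher in the old list (percentile 42.5) than in the young list (20.8), and its H3K27me3 peak measured 20896 bp in young QSCs, 8253 bp in ASCs and 1078 bp in old QSCs. At chr5:35737983-35738811, by contrast, the H3K27me3 peak was wider in ASCs (33699 bp) than in young QSCs (18266 bp), and neither mark was called in old QSCs. H3K27me3 of young QSCs covered 40.3% of that site and H3K27me3 of ASCs covered all of it.

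The sites often lay close to H3K4me3 that was called in ASCs. The median distance to the nearest ASC H3K4me3 peak was 6129 bp, with the middle 50% between 1728 and 24400 bp and a range of 12 to 1777231 bp. An ASC H3K4me3 peak was found within 1 kb of 54 sites (17.5%), within 5 kb of 146 (47.2%) and within 50 kb of 259 (83.8%). For the 4918 H3K4me3 peaks that had neither H3K27me3 in QSCs nor H3K4me3 in ASCs, the median distance was 19191 bp and 22.8% lay within 5 kb. Since the sites could not overlap an ASC H3K4me3 peak, the shares within 1 kb are not comparable with the 80.3% of all peaks that had one within this distance.

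Within young QSCs themselves, another H3K4me3 peak lay within 5 kb of 152 sites (49.2%, 43.7 to 54.7). This exceeded the 27.3% of all H3K4me3 peaks and the 36.4% (34.7 to 38.2) of the sites with both marks in ASCs. For scores under 100 the shares were closer, at 56.6% of the sites and 49.2% of those with both marks. Another H3K4me3 peak within 1 kb was found for 69 sites (22.3%), compared with 11.5% of all peaks. Merging peaks less than 1 kb apart in every list before the rule was applied left 250 sites.

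The sites nearest to the limit of the rule show how small a difference decided membership. Just inside, chr13:99162186-99162842 lay 12 bp from an ASC H3K4me3 peak, chr7:51716047-51717513 lay 16 bp and chr9:87635108-87635910 lay 40 bp from one, with H3K4me3 scores of 67.0, 182 and 74.9. Just outside, chr6:85136429-85137007, chr7:86027963-86028636 and chr1:91819799-91820445 shared 4, 10 and 12 bp with an ASC H3K4me3 peak, with scores of 53.2, 109 and 67.0. The smallest overlap with H3K27me3 among the 309 was 10 bp in young QSCs and 54 bp in ASCs. For 26 of the 309, less than 50% of the H3K4me3 peak lay in H3K27me3 of young QSCs.

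Most of the sites lay alone, and no run held more than 3. No random placement was drawn, so whether the sites cluster more than other bivalent sites was not tested. When sites with gaps of up to 50 kb were joined, they formed 274 groups, of which 242 held 1 site, 29 held 2 and 3 held 3, so 67 sites had another within reach. With gaps of up to 20 kb the longest run was 2 sites, and with gaps of up to 100 kb it was still 3. The 309 sites lay in 309 H3K27me3 peaks of young QSCs, of which 300 held 1 site and 9 held 2, a number equal to that of the sites because some sites touched more than 1 H3K27me3 peak. Of these H3K27me3 peaks, 73 also held a bivalent site with both marks in ASCs.

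The 3 runs of 3 sites differed from each other. The run at chr2:74510683-74554518 (43.8 kb) held 9 H3K4me3 peaks in young QSCs, 6 in ASCs and 10 in old QSCs, with no H3K36me3 peak in QSCs or ASCs. Its 3 sites had H3K4me3 scores of 52.9, 84.9 and 215 and were the only H3K4me3 peaks of young QSCs in it with no H3K4me3 call in ASCs, and old QSCs had both marks at all 3. The run at chr7:77470176-77515418 (45.2 kb) likewise had 6 H3K4me3 peaks in ASCs beside 8 in young QSCs. In the run at chr8:90269866-90328839 (59.0 kb), ASCs had no H3K4me3 peak at all and 21 H3K27me3 peaks, compared with 3 and 12 in young QSCs and 2 and 6 in old QSCs. It was the only one of these runs with no H3K4me3 call in ASCs anywhere along it.

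**Figure D5:**
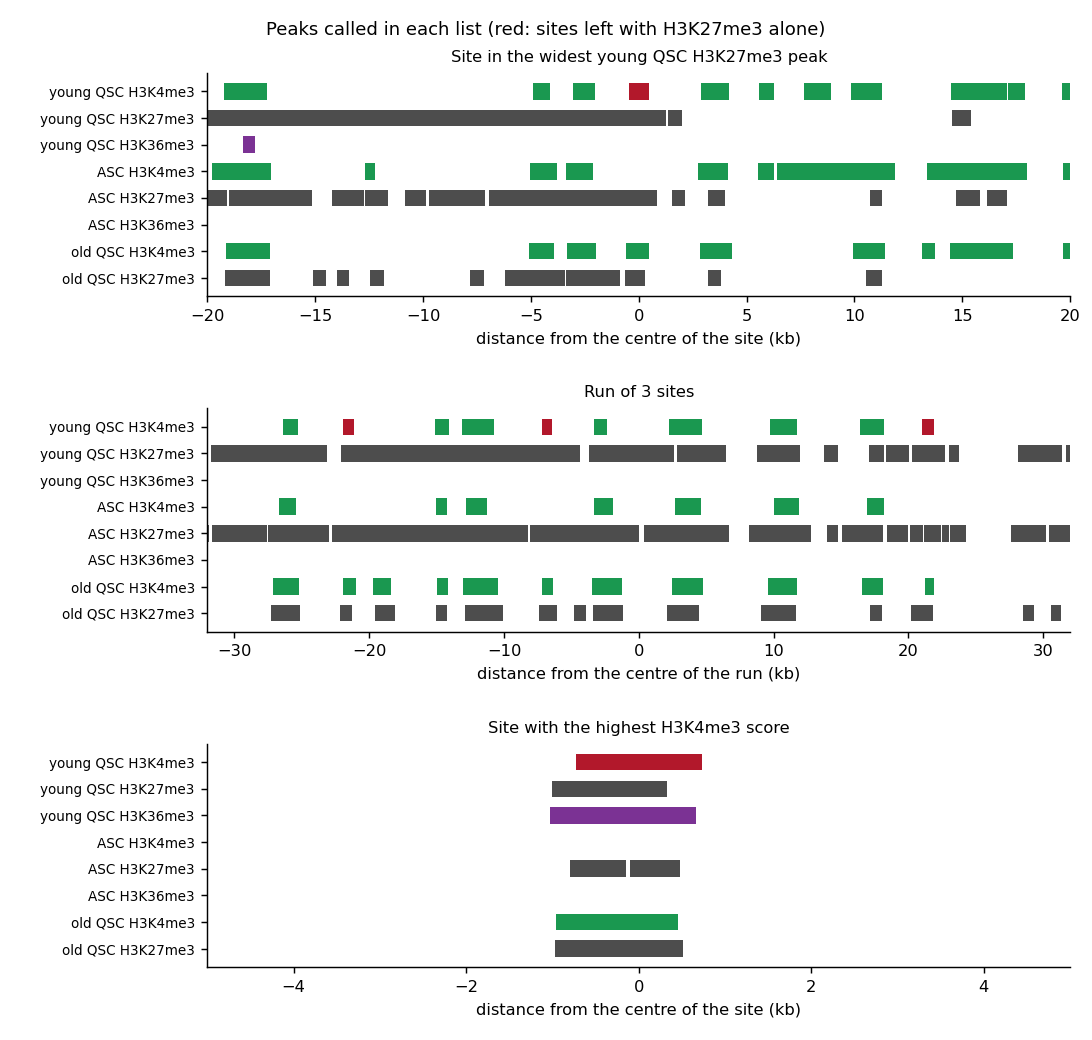
Peaks of the 8 lists (rows, bars to scale) around a site in the widest H3K27me3 peak of young QSCs, around a run of 3 sites on chromosome 2 and around the site with the highest H3K4me3 score, with distance from the centre in kb on the x axis and the sites left with H3K27me3 alone in red. In the upper 2 maps the sites lie among H3K4me3 peaks that ASCs keep, and in the lower map a lone site has H3K4me3, H3K27me3 and H3K36me3 peaks over the same stretch in young QSCs.

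Chromosome 2 held 43 of the 309 sites (13.9%) and had 363 bivalent sites, of which 11.8% (8.91 to 15.6) were left with H3K27me3 alone. Chromosome 5 had 30 of 246 (12.2%) and the X chromosome 5 of 34 (14.7%, 6.45 to 30.1). Chromosome 3 had the lowest share among the chromosomes with sites, at 4 of 134 (2.99%, 1.17 to 7.42). Its interval lay below the 8.97% of all bivalent sites, the intervals of the other chromosomes with sites included that value, and chromosome 3 was singled out after the values were seen.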

How the data were processed

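H3K4me3, H3K27me3 and H3K36me3 ChIP-seq of young QSCs and ASCs and H3K4me3 and H3K27me3 ChIP-seq of old QSCs gave 8 libraries, 1 per cell state and mark, and the 3 input libraries were not analysed on their own. For each, the authors deposited a MACS peak list with chromosome, start, end and score, called against input. The deposited score is on the scale of -10 log10 of the peak p-value, as judged from its lower limit of 50. The submitters' processing notes name Bowtie and mm9, and versions and depth are not given in the sources used here. Overlaps of at least 1 bp were computed in pandas 2.3.3 and numpy 2.4.6 under Python 3.11.15, tested on simulated data (230 of 230 planted sites found among 2000) and checked on 3 pairs of lists against bedtools 2.31.1. A percentile is the mid-rank of a peak's score within its list, with tied scores sharing their mean rank. Distances count the bases between peak edges. Where a site touched several peaks of a list, the one sharing most bases was described. Intervals are Wilson 95% intervals (scipy 1.17.1), and matplotlib 3.10.9 drew the plots.

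With 1 library per list no test was made. The named regions are the 6 sites with the highest H3K4me3 score, the 6 in the widest young QSC H3K27me3 peaks, the 3 nearest to the limit on either side and the longest runs. The sites and the comparisons were chosen with earlier results of these data known. No mm9 gene annotation or genome was used, so genes and sequence at the sites are not analysed here. Alternatives were a score of at least 100, an overlap of 50% of the shorter peak, merging of peaks less than 1 kb apart, equal numbers of top-scoring peaks, a margin of 1 kb around ASC H3K4me3 peaks, and restriction by score or H3K36me3.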

Additional observations from a re-analysis of the deposited data

How the results depend on the processing

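Of 99 values recomputed under 10 alternatives, 53 stayed within the 95% interval of the reported value or, for counts of sites and run lengths, which have no interval, within 1.5 times it, and 46 moved further. The cause of these moves was not tested beyond the smaller set of peaks or sites that some alternatives leave. With a score of at least 100 in every list, 152 sites were left (6.10% of the bivalent sites), with H3K4me3 in old QSCs at 65.1%, both marks at 54.6%, H3K36me3 in young QSCs at 21.1%, a median H3K4me3 width of 987.5 bp and a median distance to ASC H3K4me3 of 10249 bp. With that minimum in the QSC lists alone, 83 sites (3.33%) were left, with H3K4me3 in old QSCs at 78.3%, H3K27me3 at 79.5%, both at 69.9%, H3K36me3 at 43.4%, and median widths of 948 bp for H3K4me3 and 1842 bp for ASC H3K27me3. Among the 111 sites with an H3K4me3 score of at least 100 (3.76%), the old QSC shares were 74.8% for H3K4me3 and 65.8% for both, H3K36me3 was at 43.2%, the median widths were 962 bp for H3K4me3, 1278 bp for QSC H3K27me3 and 1525 bp for ASC H3K27me3, and the median distance was 10699 bp. With equal numbers of top-scoring peaks, 11.3% of the bivalent sites were left with H3K27me3 alone, with old H3K4me3 at 66.4%, both old marks at 55.8%, H3K36me3 at 18.3% and a median ASC H3K27me3 width of 3108 bp. H3K27me3 alone in old QSCs, at 25.6% of the sites as reported, was at 20.4% with a score of at least 100 in every list and 18.6% with equal numbers of peaks. Merging peaks less than 1 kb apart gave a share of 7.87%, an ASC H3K27me3 width of 3724 bp and a distance of 9122.5 bp. Requiring no ASC H3K4me3 peak within 1 kb gave 7.40%, 2054 bp and 9296 bp. Without the sites that had H3K36me3 in young QSCs, an alternative chosen after seeing the data, the share was 7.74% and the H3K27me3 widths were 2437 bp in QSCs and 3312 bp in ASCs.

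The number of sites thus ranged from 83 to 387. Only 111 of the 309 sites had an H3K4me3 score of at least 100, where the lowest score called is 50. Read depth is unknown, and its part in this range was not tested. The planned count of genes at the sites was not run. No paired analysis was possible because each cell state and mark had 1 library, so no replicate could be left out either.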
